A study of Ovis aries with 8 samples.

Results

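The growth hormone and insulin-like growth factor (IGF) axis was examined in sheep liver through 10 genes, namely GHR, STAT5B, SOCS2, IGF1, IGF2, IGFALS, IGFBP1, IGFBP2, IGFBP3 and IGFBP4. They were taken by their gene symbol from a table of 27729 genes, and each of the 10 symbols matched 1 row. Poly(A) RNA was sequenced from the liver of 4 lambs labelled RES and 4 labelled ADL. Neither name is written out in the labels. Read with the title of the series, the RES lambs are those whose feed was restricted while they suckled, and the ADL lambs are the set they were compared with. All 8 lambs went through a fattening period, per the title, and carry the same slaughter weight of 27 kg. Breed, sex and age of the animals are not stated in the labels. The titles number the lambs within each group, with 1 library for each.

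Growth hormone from the pituitary binds its receptor, GHR, on hepatocytes, and the receptor-bound kinase JAK2 then activates STAT5B, which turns on IGF1, IGFALS and the feedback inhibitor SOCS2. Most circulating IGF-I travels in a complex with IGFBP3 and the acid labile subunit, the product of IGFALS. The smaller binding proteins hold IGF outside that complex, and IGFBP1 is known as a gene that insulin represses and fasting induces in liver. At the same slaughter weight, the question was whether early feed restriction had left a mark on this axis.

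All 10 genes were detected in every lamb and none differed between RES and ADL beyond the spread between lambs. Levels are in TPM, a share of all transcripts corrected for gene length. Differences are RES minus ADL on log2(TPM + 1), from limma, with its standard error (SE) and a Benjamini-Hochberg adjusted p over the 13437 genes whose mean reached 1 TPM. All 10 genes were among those tested. In this fit 0 of the 10 had an adjusted p under 0.05, against 0% of all genes tested, and the smallest adjusted p among them was 0.46, for IGFBP3. At an unadjusted p under 0.05 the count was again 0 of 10, against 11.9% of all genes (10.4% higher and 1.5% lower in RES). The groups overlapped for all 10, whereas they did not overlap for 7.39% of all genes (6.61% higher and 0.781% lower in RES). In the authors' deposited table, 0.231% of the genes with an adjusted p had one under 0.05, and none of the 10 did.

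By TPM as deposited, 3 of the 10 genes were higher and 7 lower in RES, with a median difference of -0.04. Of all tested genes 71.0% were higher in RES, with a median of 0.09. Division by size factors, which moves these to 51.6% and 0.01, left 1 gene higher and 9 lower, with a median of -0.14 for the 10 genes. On that scale IGFBP3 was the 1 of 10 with an unadjusted limma p under 0.05, against 7.65% of all genes (3.4% higher and 4.25% lower in RES), and again 0 of 10 had groups that did not overlap, against 4.63%. A fit with voom, on read numbers recovered from the TPM, also had IGFBP3 as the 1 of 10 with an unadjusted p under 0.05, against 7.83% of all genes. The direction of a small difference thus depended on the scaling, and STAT5B and IGFBP1 changed sign with it.

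Depth, as reads assigned to genes, ran from 14514084 to 16182407 per lamb. Hepatocyte markers were abundant in every library, and the 9 of them together held 135695 to 179085 TPM in RES and 177089 to 196730 TPM in ADL. Most of each sum was ALB, at 94305 to 133797 TPM in RES and 131995 to 147825 TPM in ADL. Of the 9 markers, 7 were lower in RES, where 71.0% of all genes were higher. The 2 higher ones were FGB (difference 0.20 ± 0.22) and HNF4A (0.19 ± 0.09). The marker of that list with the smallest p, the iron carrier transferrin (TF), stood at 7643 ± 850.0 TPM in RES and 9775 ± 351 TPM in ADL, with no overlap (difference -0.36 ± 0.12, limma adjusted p = 0.395). It was the 1 of 9 whose groups did not overlap, against 0.781% of all genes on the lower side. TF was called lower in RES by the authors' deposited table, with a shrunken log2 fold change of -0.42 ± 0.10 (SE, adjusted p = 0.0123). Summed markers of stellate cells and fibroblasts lay at 271 to 312 TPM in RES and 259 to 410.1 TPM in ADL, and those of endothelial cells at 266 to 298 and 271 to 282 TPM in RES and ADL. Macrophage markers summed to 612 to 1088 TPM in RES and 704 to 917 TPM in ADL, bile duct markers to 16.5 to 23.6 and 13.8 to 22.4 TPM, and blood and lymphoid markers to 44.0 to 64.9 and 47.0 to 100.2 TPM in RES and ADL. Markers of muscle, fat and pancreas summed to at most 3.05 TPM in any lamb. In whole liver, fewer cells of a type and less RNA per cell cannot be told apart.

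**Figure D1:**
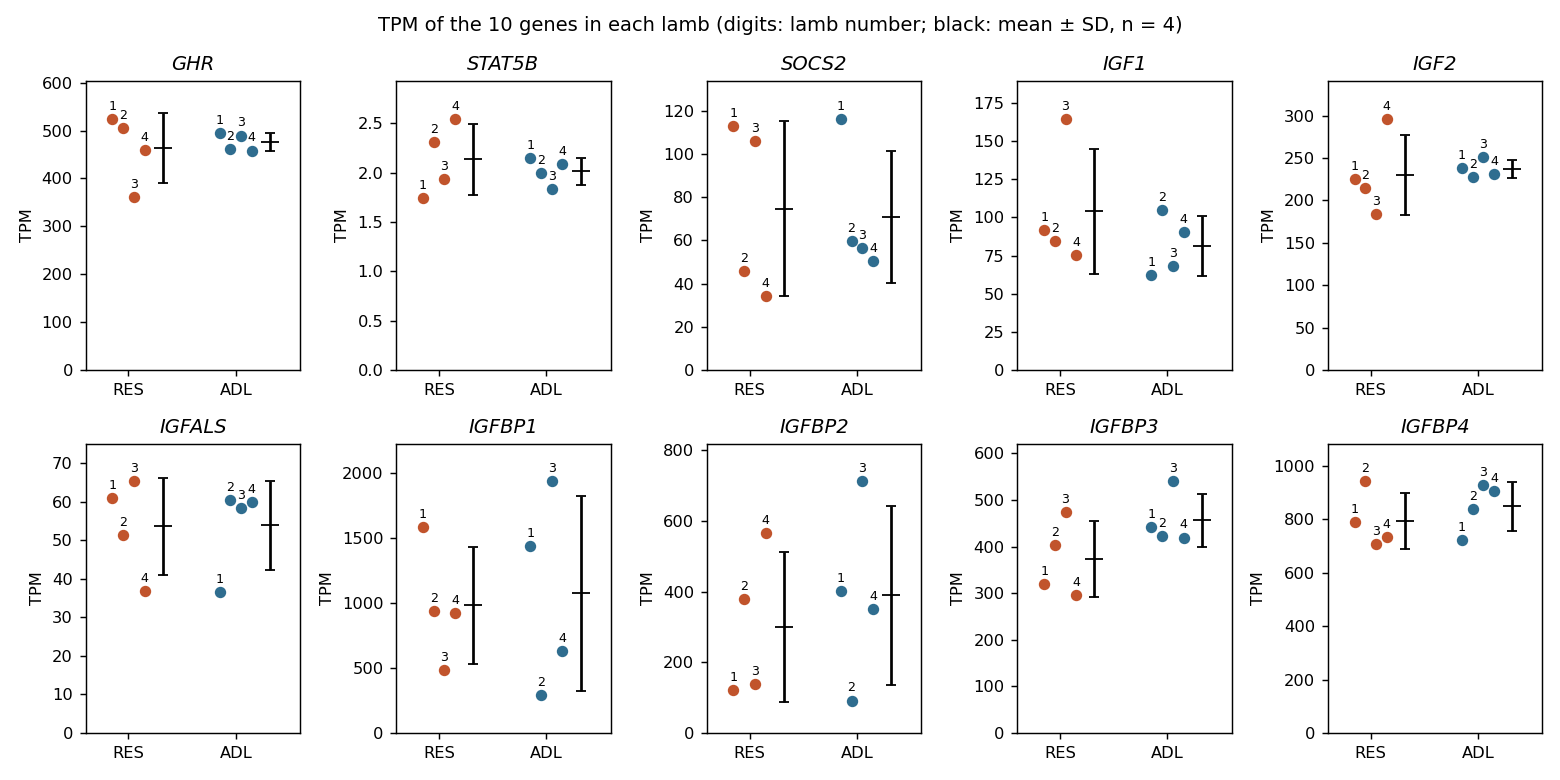
TPM (linear axes from 0) of the 10 genes in the 4 RES lambs (left in each panel) and the 4 ADL lambs (right), with the lamb number beside each point and the mean ± SD in black. The groups overlap in every panel, and IGFBP1 and IGFBP2 spread most, from 291 to 1932 TPM and from 91.7 to 712 TPM.

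By TPM the receptor upstream of STAT5 was abundant and the transcription factor scarce. TPM divides by the annotated gene length, which is 5025 bases for GHR and 12596 bases for STAT5B. GHR, annotated on chromosome 16 from 31832298 to 32129331, stood at 525, 506, 361 and 459 TPM in RES lambs 1 to 4, against 495, 462, 489.6 and 458 TPM in ADL lambs 1 to 4. The RES lambs lay on both sides of the ADL lambs, and RES lamb 3 was the lowest of all 8. The means were 463 ± 73.1 TPM in RES and 476 ± 18.5 TPM in ADL (SD, n = 4 each, as for every mean below), a log2 difference of -0.06 ± 0.12 (SE, limma adjusted p = 0.858). Its 95% interval, as a fold, ran from 0.795 to 1.17. An exact two-sided permutation test over the 70 assignments of lambs gave p = 0.857, where the smallest p the design allows is 0.0286.

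STAT5B, the transcription factor that carries the growth hormone signal to the nucleus, lies on chromosome 11 from 41751943 to 41813579. It stood at 1.75, 2.31, 1.94 and 2.55 TPM in RES lambs and at 2.15, 1.99, 1.83 and 2.09 TPM in ADL lambs. That was the lowest level of the 10 genes, with 164 to 236 reads per lamb, and the RES lambs spanned the ADL lambs on both sides. The difference was 0.05 ± 0.11 (limma adjusted p = 0.859). Its close paralog STAT5A lies 11359 bases away, and reads of such paralogs can be shared, so the values of both are uncertain as values of single genes. STAT5A was also low, at 2.83, 3.36, 4.94 and 3.89 TPM in RES lambs against 3.29, 3.27, 3.45 and 4.08 TPM in ADL lambs.

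SOCS2, which STAT5 induces and which in turn damps signalling from the receptor, split each group rather than dividing RES from ADL. It is annotated on chromosome 3 from 129556042 to 129559259. SOCS2 stood at 113, 45.9, 106 and 34.2 TPM in RES lambs, against 116, 59.7, 56.6 and 50.4 TPM in ADL lambs. RES lambs 1 and 3 and ADL lamb 1 lay at 106 to 116 TPM and the other 5 lambs at 34.2 to 59.7 TPM. The group means were nearly the same, 74.7 ± 40.5 TPM in RES and 70.8 ± 30.6 TPM in ADL (difference -0.02 ± 0.41, limma adjusted p = 0.99). The 95% interval of the fold, 0.518 to 1.89, was wide.

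The ligand IGF1, the hormone that mediates much of postnatal growth, was the gene with the largest positive difference of the 10. It lies on chromosome 3 from 171037883 to 171113228. IGF1 stood at 91.8, 84.4, 165 and 75.3 TPM in RES lambs, against 62.4, 105, 68.4 and 90.7 TPM in ADL lambs. RES lamb 3 was far above the rest, while the other 3 RES lambs lay inside the range of the ADL lambs. The means were 104 ± 40.9 TPM in RES and 81.5 ± 19.6 TPM in ADL. The log2 difference was 0.31 ± 0.25 (limma adjusted p = 0.612) and the exact permutation test gave p = 0.4, two-sided. Without RES lamb 3 the difference shrank to 0.07, and without RES lamb 4 it was 0.44. The authors' deposited table gives IGF1 a shrunken log2 fold change of 0.17 ± 0.17 (SE, adjusted p = 0.791).

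IGF2, the fetal growth factor that sheep liver goes on expressing after birth, had a higher TPM than IGF1 in every lamb. By recovered reads, not corrected for length, RES lamb 3 had 5453 for IGF1 and 3810 for IGF2. The annotated lengths are 4262 and 2671 bases. IGF2 is annotated on chromosome 21 from 48548749 to 48573206, next to the tyrosine hydroxylase gene TH. Its level was 226, 215, 183 and 296 TPM in RES lambs and 238, 228, 251 and 231 TPM in ADL lambs. The ADL lambs kept within a narrow band, and RES lamb 4 lay above it and the other 3 RES lambs below it. With a difference of -0.06 ± 0.14 (limma adjusted p = 0.851) the groups were not distinguished. The SD was 47.6 TPM in RES and 10.3 TPM in ADL, a contrast that GHR shared and that was not tested.

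The balance of the ligand messages spread more widely among RES lambs than among ADL lambs, a contrast that was not tested. The ratio of IGF1 to IGF2 was 0.407, 0.393, 0.897 and 0.254 in RES lambs 1 to 4 and 0.262, 0.459, 0.273 and 0.392 in ADL lambs 1 to 4. RES lamb 3 had the highest ratio and RES lamb 4 the lowest, so the extremes of the series both came from RES. The sum of the 2 ligands varied far less, from 299 to 371 TPM in RES and from 300.3 to 332 TPM in ADL.

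IGFALS encodes the acid labile subunit of the circulating complex and lies on chromosome 24 from 1352729 to 1356376. It stood at 61.0, 51.4, 65.3 and 36.9 TPM in RES lambs, against 36.6, 60.5, 58.3 and 60.1 TPM in ADL lambs. One lamb of each group was low, RES lamb 4 and ADL lamb 1, and the other 6 lay between 51.4 and 65.3 TPM. The means differed by less than the spread, 53.6 ± 12.6 TPM in RES and 53.9 ± 11.5 TPM in ADL (difference -0.01 ± 0.21, limma adjusted p = 0.989).

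IGFBP3, the main carrier in the circulating complex, came nearest to a difference. It is annotated on chromosome 4 from 76135031 to 76140331. The level was 320.2, 402, 475 and 297 TPM in RES lambs, against 442, 423, 539.7 and 419 TPM in ADL lambs. Of the RES lambs, 3 lay below every ADL lamb, and RES lamb 3 lay above all ADL lambs but 1. The means were 374 ± 81.4 TPM in RES and 456 ± 56.6 TPM in ADL. The log2 difference was -0.30 ± 0.16 (limma adjusted p = 0.46, unadjusted p = 0.0866), and the exact permutation test gave p = 0.2, two-sided. In the authors' deposited table the shrunken log2 fold change of IGFBP3 is -0.30 ± 0.15 (SE), with a p of 0.0369 and an adjusted p of 0.464. Size-factor scaling gave -0.41 ± 0.18 (limma unadjusted p = 0.0465, adjusted p = 0.647).

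In rat liver IGFBP3 is made mainly by non-parenchymal cells such as Kupffer and sinusoidal endothelial cells. In these lambs 71.0% of all genes were higher in RES by TPM as deposited, with a median difference of 0.09. On that scale 4 of 8 endothelial markers were lower in RES, as were 6 of 7 macrophage markers and 6 of 11 stellate cell and fibroblast markers. The median differences of these lists were 0.02, -0.13 and -0.20, none of their members had an unadjusted p under 0.05 by TPM as deposited. After size-factor scaling 6 of 8, 7 of 7 and 9 of 11 were lower, with medians of -0.08, -0.23 and -0.30, and the collagen-binding matrix gene DCN among the stellate markers had a limma unadjusted p of 0.0382. Of all genes 51.6% were higher in RES after that scaling, with a median of 0.01. The unadjusted threshold of 0.05 was passed by 11.9% of all genes by TPM as deposited. After scaling 4.25% of all genes passed it on the lower side. The part of these cell types in the IGFBP3 values was not tested.

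IGFBP4, a binding protein that mostly restrains IGF action, had the smallest range of the 10 genes, as the highest level over the lowest. It lies on chromosome 11 from 40200887 to 40211101. Its values were 789.9, 943, 708 and 735 TPM in RES lambs and 724, 841, 930.4 and 905 TPM in ADL lambs. The highest lamb had 1.33 times the lowest. The means were 794 ± 105 TPM in RES and 850.2 ± 92.0 TPM in ADL, with a difference of -0.10 ± 0.12 (limma adjusted p = 0.734).

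IGFBP1 and IGFBP2, carriers whose liver expression is known to follow nutrition, varied more between lambs than nearly all other genes. IGFBP1 stood at 1581, 933, 485 and 918 TPM in RES lambs, against 1434, 291, 1932 and 629.8 TPM in ADL lambs. The ADL lambs held both the highest and the lowest value. The means were 979.5 ± 452 TPM in RES and 1072 ± 748 TPM in ADL, with a difference of 0.09 ± 0.58 (limma adjusted p = 0.956). The 95% interval of the fold ran from 0.432 to 2.64, so large changes either way lie within it. Without ADL lamb 2 the difference was -0.42, and without ADL lamb 3 it was 0.49. IGFBP1 lies on chromosome 4 from 76149955 to 76154232, on the minus strand, and is separated from IGFBP3 on the plus strand by 9624 bases. Despite this proximity Pearson's r of their levels over the 8 lambs was -0.04 and Spearman's rho 0.05 (exact permutation p = 0.916 and 0.935).

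IGFBP2 stood at 121, 378, 138 and 567 TPM in RES lambs and at 402, 91.7, 712 and 351 TPM in ADL lambs. RES lambs 1 and 3 and ADL lamb 2 were low, and the other 5 lay at 351 TPM or above. The means were 301 ± 213 TPM in RES and 389 ± 254 TPM in ADL (difference -0.34 ± 0.67, limma adjusted p = 0.839). Leaving out ADL lamb 2 made it -0.92 and leaving out ADL lamb 3 made it 0.06. IGFBP2 is annotated on chromosome 2 from 217602923 to 217632202, and its neighbour IGFBP5 lies 9342 bases away.

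**Figure D2:**
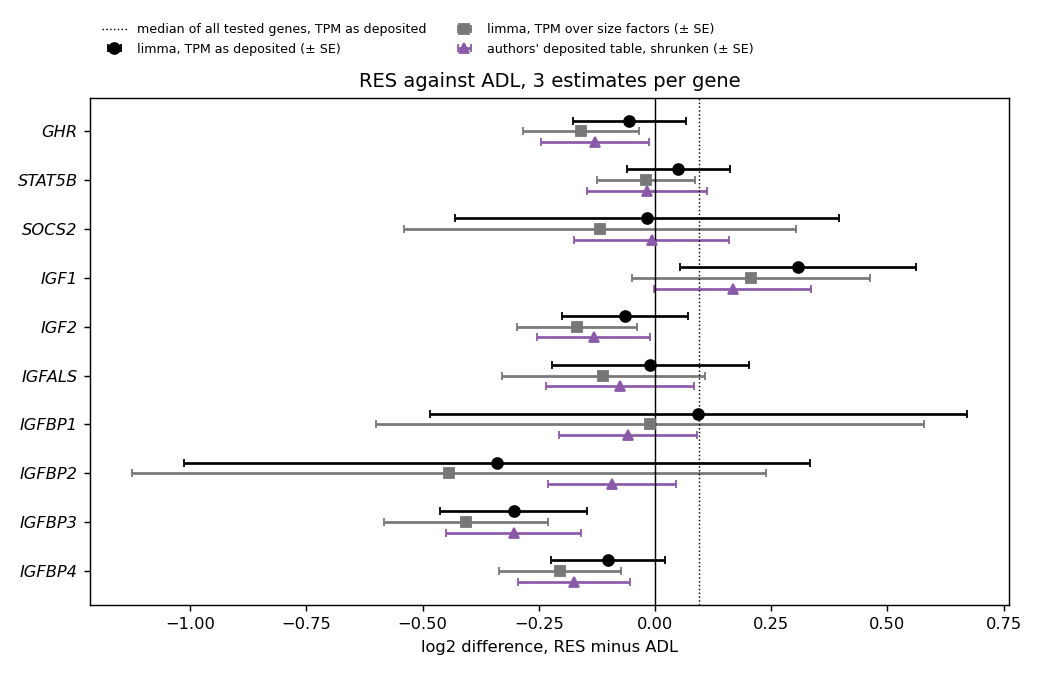
Log2 difference of RES minus ADL for the 10 genes, by limma on TPM as deposited (circles), by limma on TPM over size factors (squares) and from the authors' deposited table, shrunken (triangles), each ± SE, with the median of all tested genes as a dotted line at 0.09. Among the shrunken values IGFBP3 lies lowest at -0.30, while limma puts IGFBP2 lowest, at -0.34 as deposited and -0.44 over size factors. The wide limma bars of IGFBP1 and IGFBP2 come from their spread between lambs.

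The spread within groups set how small a difference could be seen for each gene. The SD of log2(TPM + 1) within groups was 1.17 for IGFBP2, 1.00 for IGFBP1, 0.71 for SOCS2 and 0.43 for IGF1, against a median of 0.18 over all tested genes. Among all tested genes these spreads lie at percentile 99.4 for IGFBP2, 99.1 for IGFBP1, 97.7 for SOCS2 and 91.5 for IGF1. Counting noise was small beside them: the CV expected from the mean number of reads alone was 1.24% for IGFBP1, 1.69% for IGFBP2, 3.12% for SOCS2 and 1.80% for IGF1. Only for STAT5B was the counting CV, 7.01%, as large as the CV between ADL lambs, 6.75%. GHR, IGFBP4 and STAT5B lay at percentile 47.7, 46.3 and 22.9.

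The order of the levels was the same in RES and ADL when taken by the mean TPM. This order depends on the annotated lengths, from 777 bases for IGFBP4 and 807 for IGFBP1 to 12596 for STAT5B. By recovered reads GHR, at 14107 to 20659 per lamb, was above IGFBP1, at 1812 to 13092. By mean TPM the order ran from IGFBP1, IGFBP4, GHR, IGFBP3, IGFBP2 and IGF2 to IGF1, SOCS2, IGFALS and STAT5B. Over the 8 lambs IGFBP4 exceeded GHR, IGF2 exceeded IGF1, and IGFALS exceeded STAT5B in 8 of 8. The other neighbours changed places between lambs. IGFBP1 was above IGFBP4 in 4 of 8 lambs, IGFBP2 above IGF2 in 5 of 8 and SOCS2 above IGFALS in 3 of 8. GHR was above IGFBP3, IGFBP3 above IGFBP2 and IGF1 above SOCS2 in 6 of 8 each. IGFBP1, the most abundant, ranked 133 among the 27729 genes by mean TPM, IGF2 528, IGF1 1174 and STAT5B 11702.

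The makeup of the binding protein messages differed widely between animals of one group. The 4 genes IGFBP1 to IGFBP4 summed to 2812, 2656, 1807 and 2517 TPM in RES lambs, against 3001, 1647, 4114 and 2306 TPM in ADL lambs. IGFBP1 made up 56.2, 35.1, 26.9 and 36.5% of that sum in RES lambs and 47.8, 17.7, 47.0 and 27.3% in ADL lambs. Lambs with a high sum were mostly those with much IGFBP1. IGFBP2 took 4.29 to 22.5% in RES and 5.57 to 17.3% in ADL, IGFBP3 11.4 to 26.3% and 13.1 to 25.7%, and IGFBP4 28.1 to 39.2% and 22.6 to 51.1%. For each of the 4 shares the groups overlapped.

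**Figure D3:**
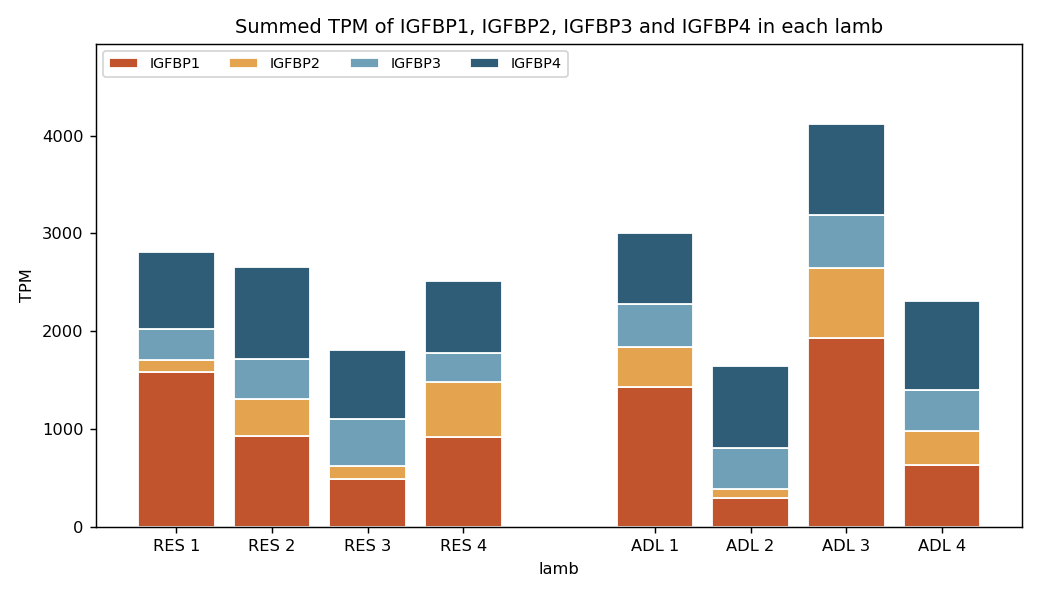
Stacked TPM (linear axis from 0) of IGFBP1, IGFBP2, IGFBP3 and IGFBP4 in each lamb, RES lambs on the left and ADL lambs on the right. The total runs from 1807 to 2812 TPM in RES and from 1647 to 4114 TPM in ADL, and IGFBP1 supplies most of the variation.

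Whether the genes varied together between lambs was asked for all 45 pairs by correlation of log2(TPM + 1) over the 8 lambs, with exact two-sided permutation of the pairings. IGF1 ran against IGFBP2 and IGFBP1, but no pair passed Benjamini-Hochberg adjustment over the 45. Pearson's r for IGF1 and IGFBP2 was -0.71 (exact permutation p = 0.0351, adjusted p = 0.476) and Spearman's rho -0.86 (exact permutation p = 0.0107, adjusted p = 0.241). Without RES lamb 3 and ADL lamb 1, the lambs farthest from the median of IGF1, r was -0.91, and with the group means removed it was -0.71. The 3 lambs with the least IGFBP2 were the 3 with the most IGF1.

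For IGF1 and IGFBP1, r was -0.68 (exact permutation p = 0.0574, adjusted p = 0.476), rho was -0.67 (exact permutation p = 0.0831, adjusted p = 0.415) and r without the same lambs was -0.74. IGF1 and IGF2 had r = -0.75 (exact permutation p = 0.0494, adjusted p = 0.476), rho = -0.74 (exact permutation p = 0.0458, adjusted p = 0.412) and r = -0.60 without those lambs. Of the genes of the circulating complex, IGF1 and IGFALS ranked the lambs alike, with rho = 0.90 (exact permutation p = 0.00456, adjusted p = 0.205). Their r was 0.67 (exact permutation p = 0.0716, adjusted p = 0.476), or 0.47 without those lambs. IGFBP3, the main carrier in that complex, followed neither gene. Its rho was -0.05 with IGF1 (exact permutation p = 0.935) and 0.17 with IGFALS (exact permutation p = 0.703). GHR and IGF1 had r = -0.79 (exact permutation p = 0.0442, adjusted p = 0.476) but rho = -0.36 (exact permutation p = 0.389, adjusted p = 0.832). Without RES lambs 1 and 3, the lambs farthest from the median of GHR, r was -0.51. In all, 4 of the 45 pairs had an unadjusted p under 0.05 by Pearson's r and 5 by Spearman's rho. Both counts include STAT5B and IGFALS, with r = -0.73 (exact permutation p = 0.0406, adjusted p = 0.476) and rho = -0.74 (exact permutation p = 0.0458, adjusted p = 0.412). The count by rho also includes IGFALS and IGFBP2, with rho = -0.74 (exact permutation p = 0.0458, adjusted p = 0.412) but r = -0.56 (exact permutation p = 0.16, adjusted p = 0.554).

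IGFBP1 was then set beside PCK1, the gluconeogenic enzyme gene that insulin also represses, a gene singled out after its values were seen. Over the 8 lambs the 2 genes gave the same order. PCK1 stood at 2106, 1574, 1207 and 1312 TPM in RES lambs and at 2085, 1199.8, 2269 and 1297 TPM in ADL lambs. Each of the 10 genes was compared with 19 genes of 2 lists, 190 pairs in all. The lists hold growth hormone and STAT5 targets known from mice and genes of the liver's insulin and FOXO1 response. These 190 pairs were also chosen after values were seen, a choice that adjustment over the pairs does not cover. IGFBP1 and PCK1 had rho = 1 (exact permutation p = 4.96e-05, adjusted p = 0.00942 over the 190 pairs). Pearson's r was 0.91 (exact permutation p = 0.00114, adjusted p = 0.111), or 0.93 without ADL lambs 2 and 3, and 0.94 with the group means removed. PCK1 itself was 1 of the genes with overlapping groups (limma difference -0.12).

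The insulin receptor substrate IRS2, another gene of the fasting response, followed IGFBP1 as closely by r, at 0.91 (exact permutation p = 0.00117, adjusted p = 0.111). Its rho was 0.88 (exact permutation p = 0.00724, adjusted p = 0.376), and r was 0.73 without ADL lambs 2 and 3. Of the 190 pairs only IGFBP1 and PCK1 had an adjusted p under 0.05, by rho and not by r. IRS2 is low, at 1.76, 1.75, 0.760 and 1.33 TPM in RES lambs and 1.43, 0.433, 2.33 and 1.44 TPM in ADL lambs. Whether the lambs were fed or fasted before slaughter is not stated in the labels.

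**Figure D4:**
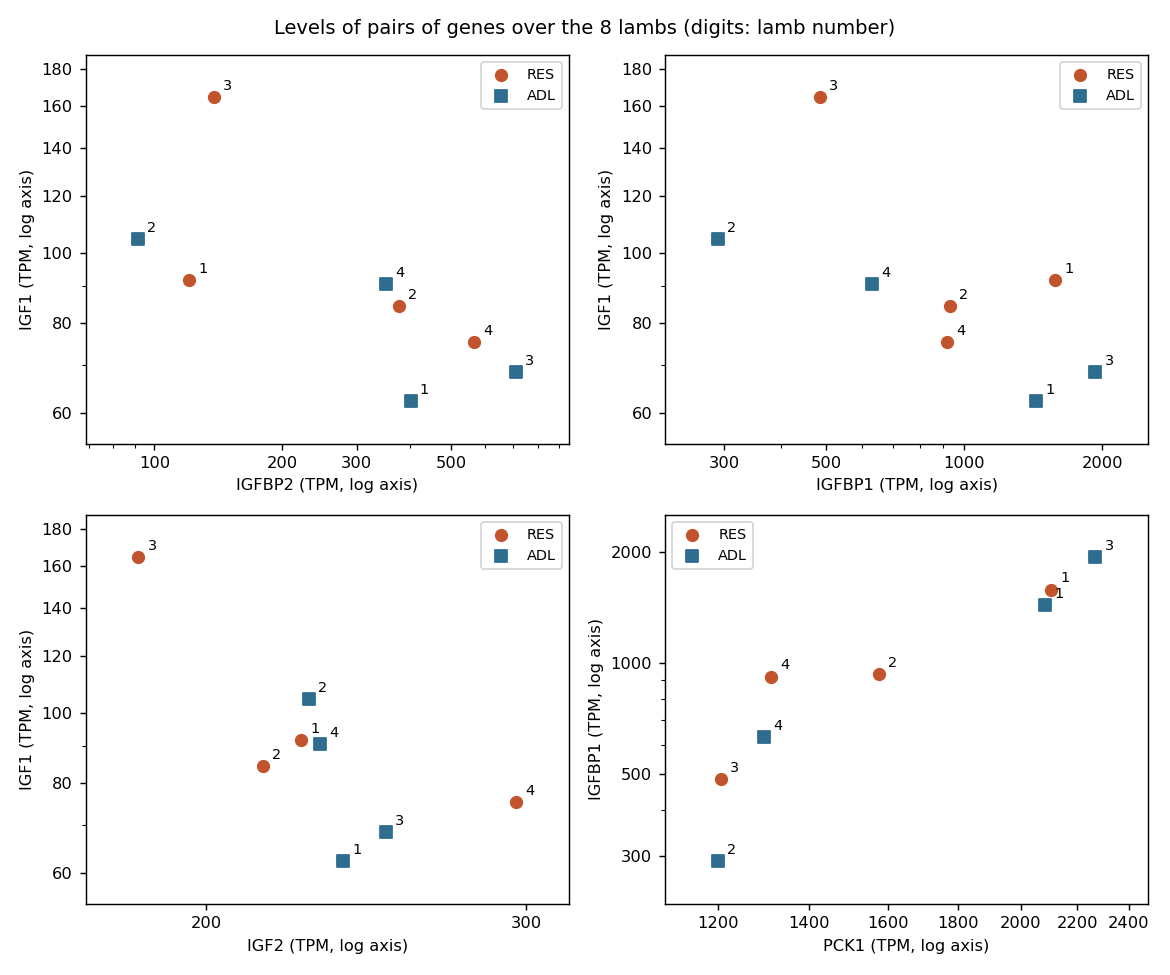
Levels in TPM on log axes of IGF1 against IGFBP2, IGFBP1 and IGF2, and of IGFBP1 against PCK1, with 1 point per lamb (circles RES, squares ADL, digits the lamb number). Lambs with more IGFBP2 or IGFBP1 tend to have less IGF1, with RES lamb 3 highest at 165 TPM, and IGFBP1 and PCK1 rank the 8 lambs identically.

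The genes most like IGF1 over the 8 lambs, out of 10694 tested genes with a symbol not starting with LOC, were ATAD1 (r = 0.98, rho = 0.95), ZNFX1 (r = 0.98, rho = 0.95) and CMTR2 (r = 0.97, rho = 1). ZNFX1 stood at 14.3, 10.6, 35.1 and 9.51 TPM in RES lambs and 9.09, 17.5, 9.83 and 14.6 TPM in ADL lambs, with RES lamb 3 highest as for IGF1. Those most like IGF2 were PBXIP1 (r = 0.95, rho = 0.83), P3H2 (r = 0.94, rho = 0.95) and FAM149A (r = 0.93, rho = 0.90). The aquaglyceroporin gene AQP7 was most like GHR (r = 0.97, rho = 0.90), ahead of TBL3 (r = 0.96, rho = 0.81). AQP7 ranged from 14.3 TPM in RES lamb 3 to 141 TPM in RES lamb 1. Being the highest of 10694, these coefficients are a description with no test. Without the 2 lambs farthest from the median, r was 0.88, 0.93 and 0.94 for the genes named with IGF1. For those named with IGF2 it was 0.85, 0.97 and 0.61, and for those named with GHR 0.76 and 0.60.

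The rest of the pathway was read from lists of related genes. Of 14 tested genes of growth hormone receptor signalling, 13 were higher in RES, or 10 after scaling, against 71.0% and 51.6% of all genes. On the higher side 5 of the 14 had an unadjusted p under 0.05, against 10.4% of all genes. None passed adjustment over all genes, and after size-factor scaling 2 of the 14 remained at an unadjusted p under 0.05, against 3.4% of all genes. The median difference was 0.24, or 0.14 scaled. JAK2, the kinase bound to GHR, stood at 7.74, 9.03, 10.02 and 9.14 TPM in RES lambs, against 7.98, 6.97, 6.38 and 6.90 TPM in ADL lambs (difference 0.31 ± 0.10, limma adjusted p = 0.395). All RES lambs but lamb 1 were above every ADL lamb. PTPN11, the phosphatase SHP2 that acts downstream of growth factor receptors, averaged 31.3 ± 3.12 TPM in RES and 25.3 ± 1.99 TPM in ADL (0.29 ± 0.10, limma adjusted p = 0.395). STAT3 averaged 50.5 ± 4.14 TPM in RES and 42.7 ± 1.93 TPM in ADL, and the kinase gene SRC 3.33 ± 0.594 and 2.23 ± 0.567 TPM. For PTPN11 and STAT3, 2 of the 14, the groups did not overlap, against 6.61% of all genes on the higher side. After scaling the limma unadjusted p of STAT3 was 0.155. The STAT5 target CISH, a feedback inhibitor like SOCS2, lay at 8.01 to 10.04 TPM in RES and 4.93 to 9.79 TPM in ADL.

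All 12 tested genes of the IGF receptors and their docking proteins were higher in RES by TPM, with a median of 0.14, against 71.0% of all genes. After scaling 8 of 12 were higher, with a median of 0.04, against 51.6%. The adaptor GRB2 was the 1 of 12 with an unadjusted p under 0.05, a share below the 10.4% of all genes on the higher side, at 40.3 ± 1.44 TPM in RES and 33.4 ± 1.87 TPM in ADL (0.27 ± 0.07, limma adjusted p = 0.395), and its groups did not overlap, as for 6.61% of all genes on that side. The type 1 IGF receptor, IGF1R, was scarce, at 1.26 to 2.39 TPM in RES and 1.34 to 1.69 TPM in ADL. The clearance receptor for IGF-II, IGF2R, lay at 31.3, 38.3, 25.8 and 71.9 TPM in RES lambs, against 24.7, 25.5, 21.9 and 37.3 TPM in ADL lambs (0.51 ± 0.29, limma adjusted p = 0.486).

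Among 8 tested genes of other IGF-binding proteins and their proteases, 5 were higher and 3 lower in RES, with a median of 0.02, but 2 were higher and 6 lower after scaling, with a median of -0.08. IGFBP5, the neighbour of IGFBP2, had the smallest p. It stood at 3.49, 2.58, 3.30 and 1.65 TPM in RES lambs, against 4.21, 3.57, 6.79 and 4.14 TPM in ADL lambs, so every RES lamb was below every ADL lamb (-0.60 ± 0.21, limma adjusted p = 0.395). On the lower side 1.5% of all genes had an unadjusted p under 0.05 and 0.781% had groups that did not overlap. The authors' deposited table gives IGFBP5 a shrunken log2 fold change of -0.52 ± 0.17 (SE), with a p of 0.00266 and no adjusted p. IGFBP7 was the most abundant of this list, at 227 to 258 TPM in RES and 221 to 259.5 TPM in ADL. PAPPA, a protease that cleaves IGFBP4, lay at 6.31 to 13.9 TPM in RES and 5.35 to 10.9 TPM in ADL.

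Of 10 tested genes known as growth hormone or STAT5 targets in mouse liver, 7 were higher and 3 lower, or 4 and 6 after scaling, with medians of 0.06 and -0.02. Of all genes 71.0% and 51.6% were higher. EGFR, the epidermal growth factor receptor, had the smallest p, at 13.8 ± 3.30 TPM in RES and 10.04 ± 1.28 TPM in ADL (0.41 ± 0.16, limma adjusted p = 0.408). It was the 1 of 10 with an unadjusted p under 0.05, against 10.4% of all genes on the higher side. After scaling its limma unadjusted p was 0.0637. In the insulin and FOXO1 list 7 of 9 tested genes were higher, or 6 after scaling, with medians of 0.11 and 0.02, against 71.0% and 51.6% of all genes. SREBF1, the lipogenic transcription factor that insulin induces, stood at 12.4, 21.2, 13.4 and 31.95 TPM in RES lambs and 5.86, 14.5, 9.83 and 13.6 TPM in ADL lambs (0.77 ± 0.34, limma adjusted p = 0.417). Imprinted growth genes, to which IGF2 and IGF2R belong, split into 5 higher and 3 lower of 8 tested. The smallest p among them was that of NNAT, at 13.6 ± 9.41 TPM in RES and 5.43 ± 2.20 TPM in ADL, with a limma adjusted p of 0.449. The messages of proteins that bind IGF2 RNA, IGF2BP1, IGF2BP2, IGF2BP3 and LIN28B, all had a mean under 1 TPM and were not tested.

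**Figure D5:**
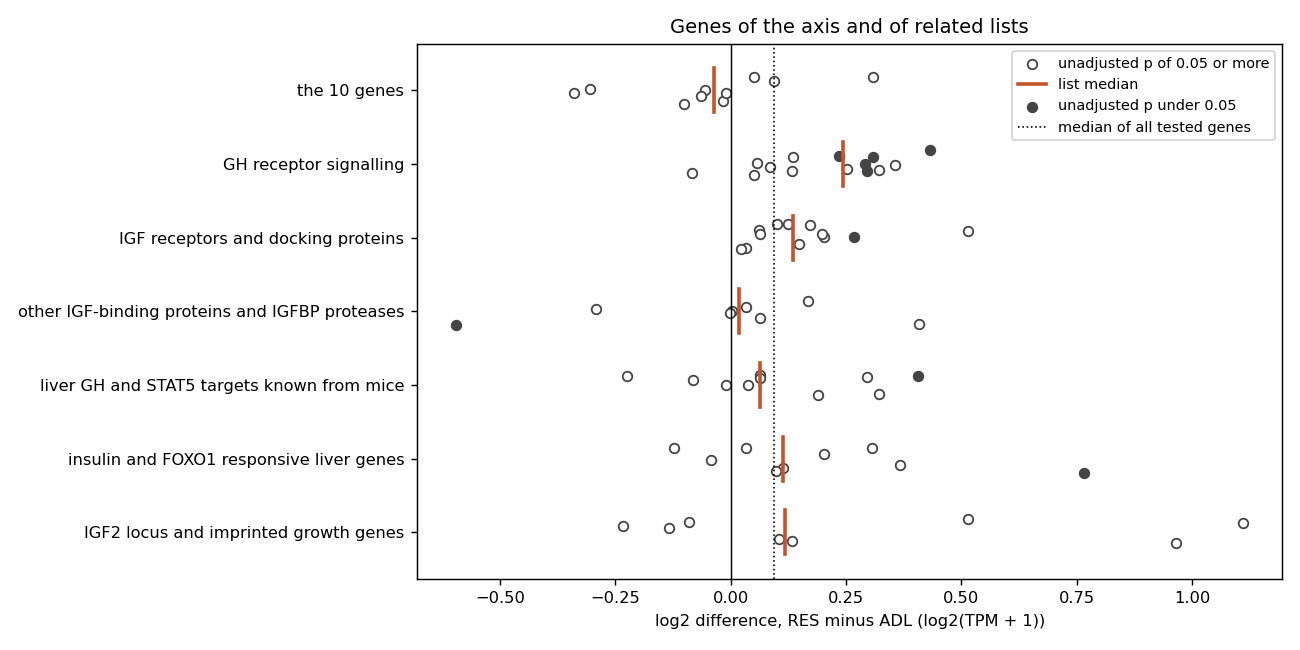
Log2 difference of RES minus ADL for every tested gene of 7 lists (rows), filled where the unadjusted limma p is under 0.05, with each list's median as a vertical bar and the median of all tested genes, 0.09, as a dotted line. The 10 genes of the axis centre on -0.04 with none filled, where 11.9% of all tested genes have such a p. The receptor signalling list centres on 0.24 with 5 of 14 filled, all higher, against 10.4% of all genes on that side. After size-factor scaling, not drawn, 2 of the 14 remain, against 3.4% of all genes.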

How the data were processed

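Liver RNA was purified with DNase treatment, poly(A)-selected and sequenced as paired reads of 100 bases, per the labels' protocols. Tools listed in the submitters' processing notes are bcl2fastq 1.8.4 and DESeq2 1.12.4. No aligner, read counter, strand setting or genome build is named there. The authors deposited TPM values per lamb and gene, with gene length and annotation in the same table. It also holds the authors' DESeq2 results, per the file headers: a mean of normalized counts (a signal scaled by size factors), a log2 fold change and its error, a test statistic (a score), and p-values, raw and adjusted. Shrunken fold changes are quoted, and their direction, RES over ADL, was checked against TPM means. Coordinates follow that annotation.

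TPM times gene length, divided by the smallest value of each library, gave whole numbers for 100% of values within 1e-06. These recovered reads give the depth. They were checked against the deposited mean, and no library pair differed as little as sampling noise allows. Precision varies with a gene's reads, and intervals assume lambs as replicates.

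The 13437 genes whose mean reached 1 TPM were fitted as log2(TPM + 1) with limma 3.58.1 (eBayes with a trend) in R 4.3.3. TPM folds of low genes are understated on that scale. Single values were tested by exact permutation (scipy 1.17.1), two-sided. The script was tested on simulated data. Alternatives were other pseudocounts (0.1 and 5), filters, scalings, variance models, voom on recovered reads, each lamb left out and the lamb number as a block. The genes and lists were chosen with earlier results of these data known. The 10 genes are all described. From other lists, genes with an unadjusted p under 0.05 were named, up to 4 by smallest p, otherwise 2. For IGF1, IGF2 and GHR the 3 tested genes with the highest r were chosen, of which 1 is not reported here. STAT5A, PCK1, IRS2, CISH, IGF1R, IGFBP7, PAPPA and genes named in the closing section were chosen after their values were seen, as were the 190 correlations. Of list symbols with no match in the table, nothing is reported.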

Additional observations from a re-analysis of the deposited data

Results flagged for a closer look

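Of 42 groups of 4 lambs examined for a value far from the others (the 10 genes and 11 ratios or sums, in RES and ADL), 5 held one. Chance gives about 1 in 20 for independent groups, which the ratios and sums, built from the same genes, are not. For the 10 genes alone it was 2 of 20 groups, both through ADL lamb 1. SOCS2 stood at 116 TPM in ADL lamb 1, far above the other 3 ADL lambs, and IGFALS stood at 36.6 TPM in the same lamb, far below them. The ratio of IGF1 to IGFBP1 was 0.339 in RES lamb 3, far above the other RES lambs. The ratio of IGFBP1 to IGFBP2 was 13.1 in RES lamb 1, far above the other RES lambs. The ratio of IGFBP3 to IGFBP2 was 4.62 in ADL lamb 2, far above the other ADL lambs.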

How the results depend on the processing

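None of the 10 genes passed an adjusted p of 0.05 under any alternative run, and 0 did at 0.1. The lamb number as a block left 0 genes called and 0 of the 10. Lambs of the same number correlated at -0.12 to 0.15 and 4 of 8 correlated best with their own number. Whether the numbers pair the lambs cannot be told from these values. The block gave IGFBP3 an unadjusted limma p of 0.0285 (adjusted p = 0.44), the 1 of 10 under 0.05, as were 1514 of all 13437 genes. Without RES lamb 3 the unadjusted limma p of IGFBP3 was 0.0156, where 1477 genes of the whole fit were under 0.05. Over all genes 0 were called, except 1 (LOC101120736) with no filter on low values and 0 to 1 with a lamb left out (RGS6 without ADL lamb 1). IGF1, IGFBP3 and IGFBP4 kept their direction under every alternative, at 0.07 to 0.44, -0.43 to -0.20 and -0.20 to -0.05. With a lamb left out, GHR ran from -0.12 to 0.059, STAT5B from -0.011 to 0.11, SOCS2 from -0.27 to 0.29, IGF2 from -0.19 to 0.037, IGFALS from -0.18 to 0.16, IGFBP1 from -0.42 to 0.49, IGFBP2 from -0.92 to 0.059 and the fat marker PLIN1 from -0.13 to 0.21. Size-factor scaling, quantile normalization and voom turned STAT5B to -0.019, -0.016 and -0.031, scaling and voom turned IGFBP1 to -0.010 each, array weights turned SOCS2 to 0.067, and voom turned PLIN1 to -0.049. The cause was not tested. STAT5B has no value at a minimum mean of 5 TPM. With 4 lambs a group the spread between animals, more than depth, limits IGFBP1, IGFBP2 and SOCS2. For STAT5B the counting CV of 7.01% compares with a CV between lambs of 16.9% in RES and 6.75% in ADL.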

Other observations

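RES lamb 4, which held the most IGF2 (296 TPM) and the most IGF2R (71.9 TPM), also held the most of 2 other genes. PEG3, an imprinted zinc finger gene, stood at 161 TPM in that lamb, against 4.65 to 20.8 TPM in the other 3 RES lambs and 2.92 to 14.1 TPM in ADL lambs. IGF2BP1, a fetal RNA-binding protein gene, stood at 1.02 TPM in RES lamb 4 and at no more than 0.112 TPM in any other lamb. The imprinted genes NNAT and DLK1 did not set this lamb apart, as NNAT stood at 21.5 TPM there and at 21.9 TPM in RES lamb 2, and DLK1 at 10.4 TPM, within the 2.97 to 11.1 TPM of the other RES lambs. Of the remaining tested genes of the imprinted list, CDKN1C was lowest of all lambs in RES lamb 4, at 2.73 TPM. PLAGL1 (3.10 TPM there), GRB10 (13.0 TPM) and MEST (5.77 TPM) lay within the range of the other lambs.

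SOCS2 varied between lambs with CUX2, a growth hormone-responsive repressor gene in mouse liver, although ADL lamb 3 was high in CUX2 only. CUX2 stood at 9.62, 7.19, 11.9 and 6.43 TPM in RES lambs and 10.2, 7.58, 9.94 and 7.25 TPM in ADL lambs. With SOCS2 it had r = 0.85 (exact permutation p = 0.0105, adjusted p = 0.44 over 190 pairs) and rho = 0.83 (exact permutation p = 0.0154, adjusted p = 0.376), and r was 0.90 without RES lamb 1 and ADL lamb 1. FGF21, the fasting hormone of the liver, was highest and lowest in the same ADL lambs as IGFBP1, at 22.8 TPM in ADL lamb 3 and 0.744 TPM in ADL lamb 2. Its r with IGFBP1 was 0.81 (exact permutation p = 0.0131, adjusted p = 0.44) and rho 0.64 (exact permutation p = 0.0962, adjusted p = 0.736), and r was 0.31 without those 2 lambs, so the relation rests on them.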
